A study of Rattus norvegicus with 6 samples.

Results

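The glucose transporters of the SLC2 family (GLUTs) were examined in NRK-52E cells, an established epithelial line from the rat kidney, after exposure to streptozotocin (STZ). The 10 GLUT genes were taken by symbol from the deposited table of 18930 genes: Slc2a1, Slc2a2, Slc2a3, Slc2a4, Slc2a5, Slc2a6, Slc2a8, Slc2a9, Slc2a10 and Slc2a12. Each symbol matched 1 row. Wild-type NRK-52E cells were either left as Control with vehicle (3 samples) or kept in 10 mM of STZ for 24 h (3 samples), and mRNA was sequenced. The sources do not say whether the samples of a group were separate cultures, so the p-values measure the spread between these samples, which may be technical. Total counts per library were 10430924 to 15191349. Among carrier genes with few reads, Slc2a2, Slc2a9 and Slc5a2 are also given relative to depth, and the others as reads alone.

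GLUT proteins are membrane carriers that let glucose, fructose and related sugars move down their concentration gradient, whereas the sodium-glucose cotransporters (SGLTs) of the SLC5 family pull glucose into the cell with sodium. STZ is a glucosamine joined to a nitrosourea, and it enters pancreatic β-cells through GLUT2, the product of Slc2a2. In the kidney GLUT2 and SGLT2 (Slc5a2) are carriers of the early proximal tubule, and GLUT1 (Slc2a1) is the carrier of basal glucose uptake in most cells. The comparison asks which of these carriers the cell line transcribed at all and whether their RNA differed after STZ.

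Of the 10 GLUT genes, 6 passed the filter on low counts (filterByExpr in edgeR) and are called expressed here: Slc2a1, Slc2a5, Slc2a6, Slc2a8, Slc2a10 and Slc2a12. These same 6 genes had at least 1 CPM (counts per 1000000 counted reads, after scaling) in every library. The other 4, Slc2a2, Slc2a3, Slc2a4 and Slc2a9, had at most 8 reads in any library. Among the expressed genes, Slc2a5 was higher in STZ-treated cells by a fold of 1.22 (95% interval 1.12 to 1.32, n = 3 per group) and the remaining 5 did not pass the test. At its threshold, an adjusted p-value under 0.05, 50.9% of all genes tested were called, 25.9% higher and 25.1% lower in STZ. No GLUT gene also reached an absolute log2 fold change over 1, the study's second threshold, with edgeR, its likelihood ratio test, DESeq2 or limma-voom. At an unadjusted p under 0.05, too, Slc2a5 was the 1 gene called by edgeR.

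For 7 of the 10 genes RefSeq gives a promoter window, of which the 250 bases before the annotated start on build GRCr8 were read. The windows of 3 genes are shown because they stand for the most sequenced GLUT gene, the one that rose and the one named as the route of STZ. Capitals mark CG pairs.
Slc2a1, chr5:138002272-138002521, plus strand: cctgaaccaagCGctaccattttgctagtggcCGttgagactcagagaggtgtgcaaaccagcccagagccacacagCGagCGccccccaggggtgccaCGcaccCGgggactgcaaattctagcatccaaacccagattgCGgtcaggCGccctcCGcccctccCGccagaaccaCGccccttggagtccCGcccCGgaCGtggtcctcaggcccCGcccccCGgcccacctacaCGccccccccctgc
Slc2a5, chr5:165865929-165866178, plus strand: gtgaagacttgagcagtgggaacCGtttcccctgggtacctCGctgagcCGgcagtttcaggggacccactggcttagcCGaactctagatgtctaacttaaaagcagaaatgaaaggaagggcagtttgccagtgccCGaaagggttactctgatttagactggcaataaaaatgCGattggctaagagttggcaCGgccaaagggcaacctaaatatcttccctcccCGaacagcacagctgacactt
Slc2a2, chr2:113540120-113540369, plus strand: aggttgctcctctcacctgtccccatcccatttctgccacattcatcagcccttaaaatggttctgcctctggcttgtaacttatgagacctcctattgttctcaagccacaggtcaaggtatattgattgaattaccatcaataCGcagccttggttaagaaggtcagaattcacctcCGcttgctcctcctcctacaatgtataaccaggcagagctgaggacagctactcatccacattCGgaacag

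Among the 7 genes with a window, the expressed ones had more CG pairs in it than the low ones. Slc2a10, which was expressed, and the low genes Slc2a3 and Slc2a4 had no window. The window held 17 CG pairs in Slc2a1, 16 in Slc2a6, 14 in Slc2a8, 8 in Slc2a5 and 7 in Slc2a12, against 3 in Slc2a2 and 3 in Slc2a9. The median over 33469 promoter windows was 5, with quartiles of 2 and 15. The windows of Slc2a8, Slc2a5, Slc2a12, Slc2a2 and Slc2a9 lay between these quartiles. The GC box GGGCGG, searched on both strands and itself holding a CG pair, had 3 matches in Slc2a1 and 1 in Slc2a6, and was present in 30.5% of all windows. Neither CACGTG (5.59% of windows) nor TATAAA (12.9% of windows) was found in the 7. This is a description of 7 windows at annotated starts, and whether NRK-52E cells use these starts was not tested.

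Slc2a2, which encodes GLUT2, was almost without reads. It had 0, 0 and 1 read in Control replicates 1, 2 and 3, and 0 reads in each STZ replicate. The single Control read corresponds to 0.0294 reads per 1000000 counted reads (RPM), with an exact 95% Poisson interval of 0.000743 to 0.164, over the 3 libraries. For the 0 reads of the STZ group the upper bound of the same Poisson interval was 0.0905 RPM, and the level of 3 counts, used here as the limit for a count of 0, was 0.0736 RPM. These intervals and limits cover counting error only. A change of Slc2a2 in either direction below these limits was not detectable at this depth, and no fold change is given. The study's list of rat qPCR primers holds the following pair for this transcript, shown because it is the designed assay for the GLUT gene with the fewest reads here.
Slc2a2 forward primer: accagcacatacgacaccag
Slc2a2 reverse primer: accattccgcctactgcaaa

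The other 3 GLUT genes below the filter had few reads in both groups. Slc2a3, the high-affinity carrier known from neurons, had 1, 1 and 0 reads in Control and 2, 1 and 3 in STZ. Slc2a4, the insulin-responsive carrier of muscle and fat, had 2, 0 and 1 reads in Control and 4, 5 and 0 in STZ. Slc2a9, a urate carrier of the tubule and liver, had 4, 5 and 7 reads in Control and 8, 4 and 5 in STZ. It was the only one of the 4 with a read in every library, at 0.470 RPM in Control (exact Poisson interval 0.268 to 0.763) and 0.417 in STZ (0.243 to 0.668). The groups overlapped in all 4 genes. When all 18930 genes were tested without a filter, none of the 4 had an unadjusted p under 0.05, and edgeR's adjusted p-values were 0.423 to 0.901.

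**Figure D1:**
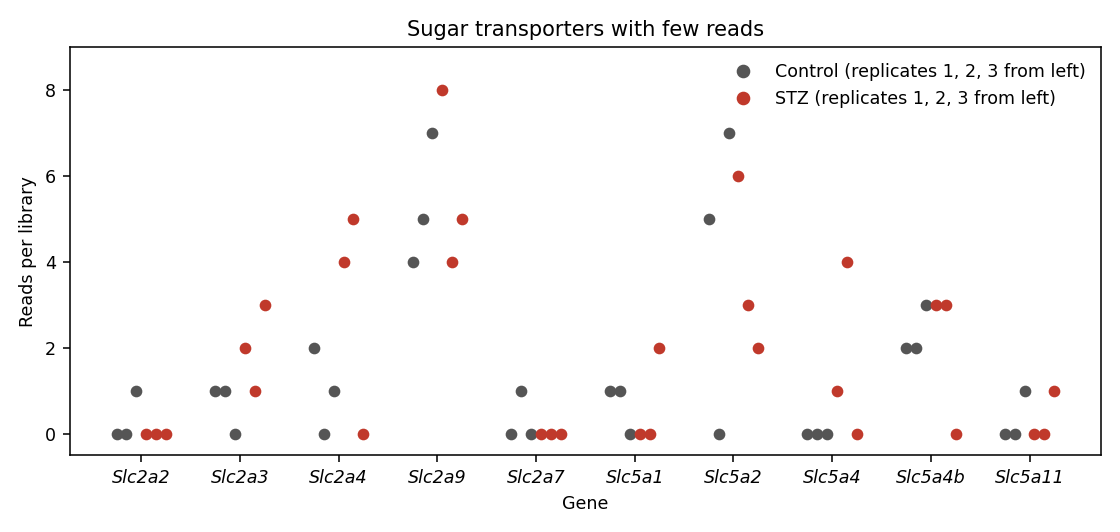
Reads per library (y axis, raw counts) for the 4 GLUT genes below the filter, Slc2a7 and 5 SGLT genes (x axis), with 1 point per library, Control in grey and STZ in red. No library had more than 8 reads of any of these genes, and Slc2a2 had 1 read in 1 Control library.

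SGLT transcripts were likewise scarce. Slc5a2 (SGLT2) had 5, 0 and 7 reads in Control and 6, 3 and 2 in STZ, or 0.352 RPM (exact Poisson interval 0.182 to 0.615) and 0.270 (0.135 to 0.483). Slc5a1 (SGLT1) had 2 reads over the Control libraries and 2 over the STZ libraries. Slc5a4b had 7 reads in Control and 6 in STZ, Slc5a11 had 1 in each group, and Slc5a4 had 0 reads in Control and 1, 4 and 0 in the STZ replicates. The latter had the smallest p of the 5 without a filter, unadjusted 0.0539 and adjusted 0.141 by edgeR. Of the GLUT genes outside the 10, Slc2a7 had 1 read in all, in Control replicate 2, while Slc2a13 was not analysed here.

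The line was also checked against markers of its labelled cell type. Of 13 proximal tubule markers listed, 9 had a row and 5 passed the filter, namely Slc4a4, Aqp1, Anpep, Mme and Ggt1. Lrp2, Cubn, Slc34a1 and Slc5a2 had at most 10 reads per library. Of 8 epithelial markers, 4 had a row, and Krt8 had 11691 to 24040 reads and Tjp1 6373 to 10188, while Cdh1 had 16 to 35 reads and Krt18 at most 3. Summed over the markers with a row, the proximal tubule list lay at 86.9 to 94.6 CPM in Control and at 105 to 116 in STZ, and the epithelial list at 1706 to 1793 and 2285 to 2290. Members moved in opposite directions within both lists. Of the proximal tubule markers Ggt1 rose by a log2 fold change of 0.73, while Aqp1 fell by 1.25 (adjusted p = 9.4e-09 by edgeR, past both thresholds) and Slc4a4 fell by 0.47 (adjusted p = 0.00597), and Anpep and Mme did not pass the test. Of the epithelial markers Krt8 rose by 0.48 and Tjp1 by 0.15, while Cdh1 fell by 0.69 (adjusted p = 0.0296 by edgeR). The fibroblast list, with 7 of 8 markers in the table and Col1a1, Col3a1 and Pdgfrb past the filter, lay at 99.7 to 111 in Control and at 56.2 to 66.8 in STZ. Its 3 tested markers fell, Col3a1 by 1.35, Pdgfrb by 0.33 and Col1a1 by 0.27 on the log2 scale. Their adjusted p-values by edgeR were 2.5e-18, 0.00286 and 0.00921 in that order, and the groups overlapped in Col1a1. For these calls and those above, 50.9% of all genes tested were called, 25.9% higher and 25.1% lower in STZ. The other lists were low in every library. Endothelial markers (4 of 4 with a row) summed to 0.455 to 0.754 CPM in Control and 0.800 to 1.13 in STZ, and leukocyte markers (3 of 4) to 1.09 to 1.98 and 2.17 to 2.54. Distal nephron and collecting duct markers (3 of 6) summed to 0.156 to 0.727 in Control and 0.334 to 0.782 in STZ, and pancreatic beta cell markers (2 of 4) to 0 in Control and 0 to 0.133 in STZ. The sums of the proximal tubule, epithelial, fibroblast, endothelial and leukocyte lists did not overlap between the groups. Of all genes tested singly, 56.3% were also separated, in either direction. Control and STZ reads were 3 and 22 for Kdr and 0 and 2 for Cdh5. They were 16 and 13 for Tek and 3 and 0 for Pecam1. Of the leukocyte list only Cd68 passed the filter, and its adjusted p was 0.279 by edgeR. The sums were given no test, and the part of these markers in the GLUT results was not tested. In such bulk RNA, fewer cells of a type and less RNA per cell cannot be told apart.

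Slc2a5, which encodes the fructose carrier GLUT5, was the GLUT gene with a difference between the groups. It had 57.0, 55.7 and 54.2 CPM in Control replicates 1, 2 and 3, and 73.5, 67.6 and 62.4 in the STZ replicates. All 3 STZ libraries lay above all 3 Control libraries, and 56.3% of all genes tested were separated in either direction. In normalized counts, which are scaled to the mean library, Control had 693 ± 17.7 and STZ 844 ± 69.1 (SD, n = 3 each). The log2 fold change of STZ over Control was 0.29 ± 0.06 (SE), and the quasi-likelihood test of edgeR, adjusted by the Benjamini-Hochberg method over 11870 genes, gave an adjusted p of 6.6e-05. On the linear scale this was a fold of 1.22, with a 95% interval of 1.12 to 1.32. Many genes passed this threshold: 50.9% of all genes tested did, 25.9% higher and 25.1% lower in STZ, and the GLUT count of 1 in 6 lies below that share. By p, Slc2a5 ranked 2595 among the genes tested. Leaving out each library in turn gave it log2 fold changes of 0.22 to 0.35, all past the threshold.

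**Figure D2:**
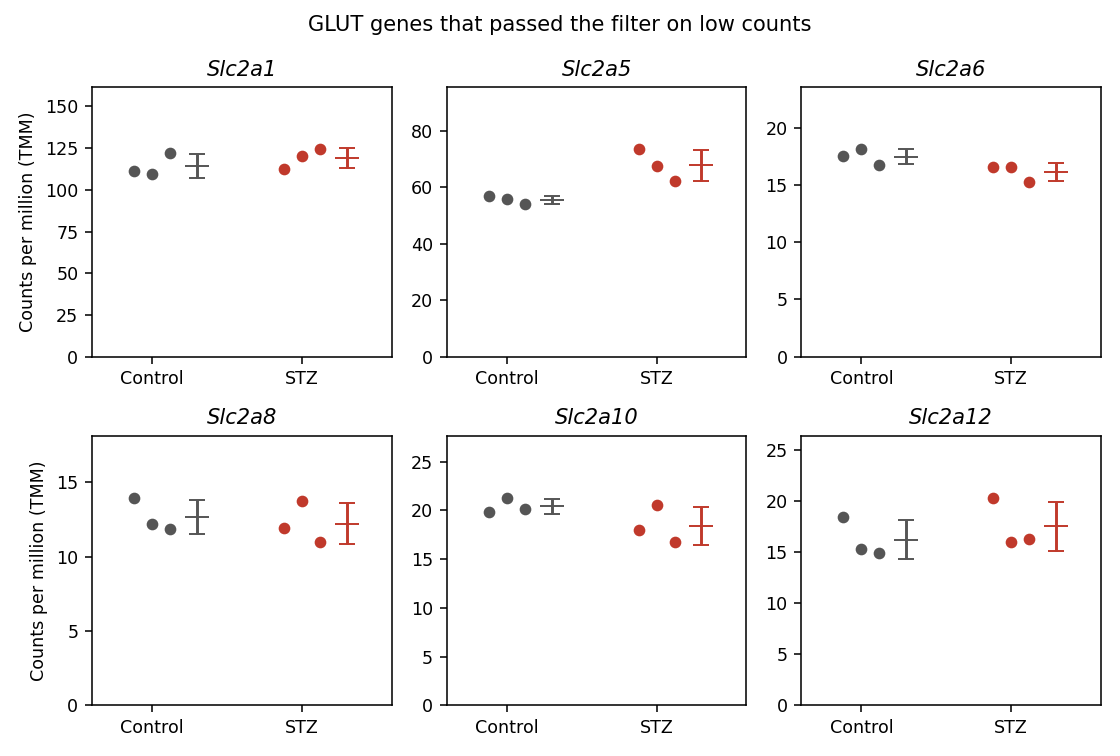
CPM after TMM scaling (y axis, linear, starting at 0) for the 6 expressed GLUT genes in Control (grey) and STZ (red), with 1 point per replicate and the mean ± SD beside the points (n = 3). For Slc2a5 the STZ libraries, at 62.4 to 73.5, sit above the Control libraries at 54.2 to 57.0, whereas the groups overlap for Slc2a1, Slc2a8, Slc2a10 and Slc2a12.

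Slc2a1 had the most reads of the family, 1179 to 1862 per library. It had 111, 109 and 122 CPM in Control and 112, 121 and 124 in STZ. The groups overlapped. Normalized counts were 1423 ± 87.1 in Control and 1482 ± 75.6 in STZ (SD, n = 3 each), and the log2 fold change was 0.06 ± 0.05 (SE), with an adjusted p of 0.344 by edgeR. The 95% interval of the fold was 0.972 to 1.11. With 1 library left out at a time the log2 fold change ran from 0.02 without STZ replicate 3 to 0.11 without Control replicate 3, never past the threshold. This interval contains a fold of 1 and is the narrowest on the log2 scale among the 6 expressed genes.

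Slc2a6, whose product GLUT6 lies on lysosomes, and Slc2a8, an intracellular carrier, did not pass the test. Slc2a6 had 17.5, 18.1 and 16.8 CPM in Control and 16.6, 16.6 and 15.2 in STZ. The STZ libraries all lay below the Control libraries, a separation in either direction that 56.3% of all genes tested showed. Its log2 fold change was -0.12 ± 0.09 (SE), edgeR's adjusted p was 0.308, and the interval of the fold was 0.810 to 1.05. Slc2a8 had 14.0, 12.2 and 11.9 CPM in Control and 11.9, 13.7 and 11.0 in STZ, so the groups overlapped. Its log2 fold change was -0.06 ± 0.11 (SE), edgeR's adjusted p was 0.698, and the interval of the fold was 0.821 to 1.12.

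Slc2a10 encodes GLUT10, which is lost in arterial tortuosity syndrome, and Slc2a12 encodes GLUT12, an insulin-responsive carrier; neither passed the test. Slc2a10 had 19.8, 21.3 and 20.2 CPM in Control and 18.0, 20.6 and 16.7 in STZ. STZ replicate 2 lay within the Control range and the other 2 STZ libraries below it. Its log2 fold change was -0.16 ± 0.09 (SE), edgeR's adjusted p was 0.144, and the interval of the fold was 0.790 to 1.02. Without STZ replicate 2 the log2 fold change was -0.23, with an adjusted p of 0.0463 by edgeR. Slc2a12 had 18.4, 15.3 and 14.9 CPM in Control and 20.3, 16.0 and 16.3 in STZ. In each group replicate 1 was the highest, and the groups overlapped. Its log2 fold change was 0.12 ± 0.10 (SE), edgeR's adjusted p was 0.329, and the interval of the fold was 0.944 to 1.26. The log2 fold change was 0.0055 without STZ replicate 1 and 0.22 without Control replicate 1, neither past the threshold. In the RefSeq gene table of GRCr8 the spans of Slc2a6 and Cacfd1 overlap, as do those of Slc2a10 and Elmo2 and those of Slc2a5 and a tRNA gene. The strand setting used for counting is not given in the sources used here, so reads of overlapping genes may not have been told apart.

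**Figure D3:**
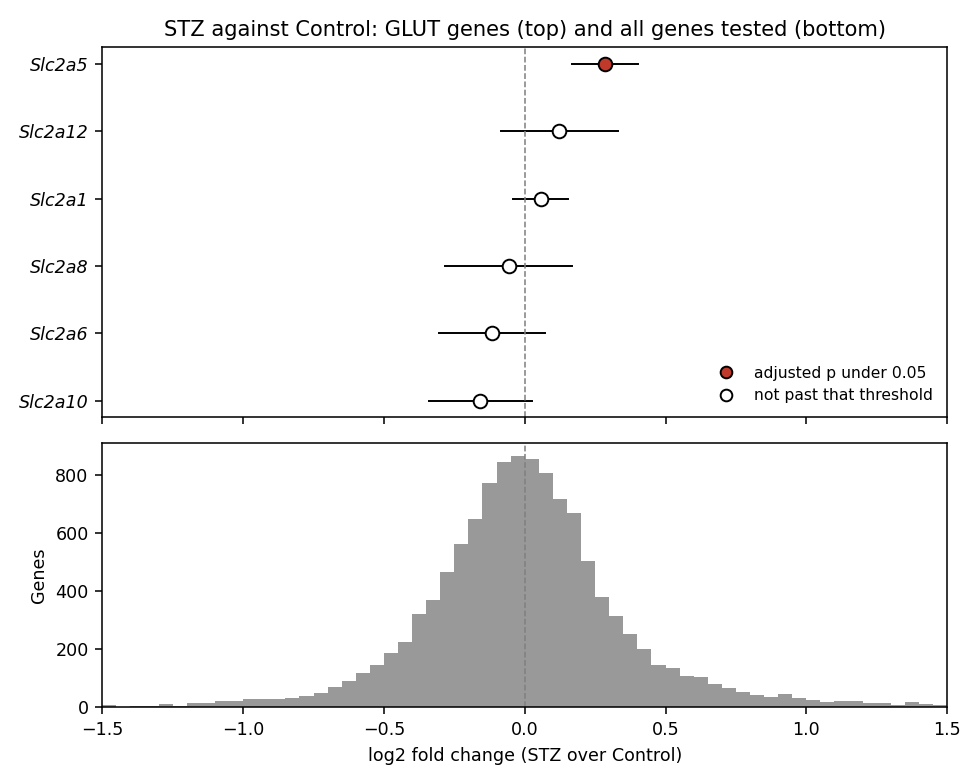
Top, log2 fold change (x axis, STZ over Control) of the 6 expressed GLUT genes with 95% intervals from the edgeR fit, filled where the adjusted p-value was under 0.05. Bottom, the number of genes (y axis) by log2 fold change among the 11870 tested, of which 139 lie outside the range shown. Slc2a5 at 0.29 is the only GLUT gene whose interval leaves out 0.

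The 6 expressed GLUT genes moved little. Their log2 fold changes ran from -0.16 to 0.29 with a median of -0.00041. The median absolute log2 fold change was 0.12, against 0.19 over all genes tested. GLUT genes below the filter had too few reads to judge a change. Summed over the 10 genes, GLUT reads were 239, 233 and 241 CPM in Control and 254, 256 and 246 in STZ. Every STZ library was above every Control library, and of genes tested singly 56.3% were separated in either direction. The means were 237 ± 4.29 and 252 ± 4.97 (SD, n = 3 each), a fold of 1.06. The log2 ratio of the group levels was 0.09 and fell to 0.053 when counts were scaled by library size alone. Slc2a5 took 23.9%, 24.0% and 22.5% of GLUT reads in Control and 29.0%, 26.4% and 25.3% in STZ. Slc2a1 took 46.6%, 47.1% and 50.8% in Control and 44.3%, 47.1% and 50.4% in STZ. These shares count reads and are not corrected for transcript length, so they do not rank the genes against each other by molecules. The responses of Slc2a5 and Slc2a1 were set against each other by the reads of Slc2a5 per read of Slc2a1, a ratio chosen after the values were seen. The ratio was 0.513, 0.509 and 0.443 in Control and 0.654, 0.561 and 0.502 in STZ, which overlapped. An exact two-sided permutation test on its log2 gave p = 0.3, but with 3 samples per group the smallest p is 0.1, so this test could not reach 0.05 and settles nothing about a difference between the 2 genes.

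The 3 genes whose levels over the 6 samples lay closest to those of Slc2a5, among 9691 named genes averaging 50 or more normalized counts, were Gpr107, Gpn3 and Zfp526. The Euclidean distance of centred log2 CPM was 0.0741, 0.0821 and 0.0860, against a median of 0.462. Their log2 fold changes were 0.30, 0.25 and 0.32. All 4 genes were measured in the same 6 libraries, and the likeness includes the difference between the groups.

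Beyond the carriers themselves, 73 other genes of sugar handling were listed, of which 58 had a row and 44 passed the filter. Of these, 18 rose and 12 fell with an adjusted p-value under 0.05, 30 of 44 against 50.9% of all genes tested. The split depended on the scaling, with 14 that rose and 15 that fell when counts were scaled by library size alone or by the upper quartile. None of the 44 had an absolute log2 fold change over 1 at any p in edgeR, and 3.37% of all genes tested passed both thresholds. The median log2 fold change was -0.01.

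Among genes that move GLUT proteins between vesicles and the plasma membrane, 21 were tested, 6 rose and 5 fell, with a median log2 fold change of -0.06. These 11 of 21 are close to the 50.9% of all genes called. The retromer subunits Vps29 and Vps26a, which with Snx27 return GLUT1 from endosomes, rose by a log2 fold change of 0.45 (SE 0.05) and 0.30 (SE 0.04). The other parts of this machinery, given after their values were seen, moved less, Vps35 by 0.09 (SE 0.04, adjusted p = 0.0484 by edgeR) and Snx27 by -0.06 (SE 0.05, adjusted p = 0.355). Vps29 had 865 ± 19.0 normalized counts in Control and 1184 ± 45.7 in STZ (SD, n = 3 each). Rab13, a GTPase of GLUT4 vesicles in muscle cells, rose from 461 ± 40.4 to 667 ± 38.8 (log2 fold change 0.54). Akt1, a kinase of insulin signalling, fell from 4601 ± 89.1 to 3960 ± 75.5 normalized counts, a log2 fold change of -0.22. The related kinase gene Akt2, given after its values were seen, had a log2 fold change of -0.13 (adjusted p = 0.0152 by edgeR). The adjusted p-values of Vps29, Vps26a, Rab13 and Akt1 were at most 3.7e-06 (edgeR). Txnip, the arrestin that removes GLUT1 from the membrane and a gene chosen after its values were seen, had a log2 fold change of 0.05 (adjusted p = 0.358 by edgeR).

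Glucose entering a cell is kept there by phosphorylation, and 5 genes of this step and its reversal were tested, of which 3 rose and 1 fell, again against 50.9% of all genes called. The hexokinase genes Hk1 and Hk2 rose by log2 fold changes of 0.15 and 0.30, Hk2 from 489 ± 69.5 to 605 ± 23.1 normalized counts (SD, n = 3 each). G6pc3, the widely expressed glucose-6-phosphatase, rose from 460 ± 25.3 to 636 ± 13.6 (log2 fold change 0.47 ± 0.06, SE). Gckr, the regulator of glucokinase, fell by 0.98 on the log2 scale (SE 0.40), with 11 to 14 reads per Control library and 5 to 12 per STZ library. The adjusted p-values were 2.9e-08 for G6pc3, 4.8e-04 for Hk2, 0.00601 for Hk1 and 0.0361 for Gckr (edgeR). Gckr was outside the rule for naming genes and was chosen after its values were seen.

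Among other sugar carriers, Slc50a1, the single SWEET carrier of mammals, rose from 153 ± 10.5 to 231 ± 10.7 normalized counts (log2 fold change 0.59 ± 0.10, SE, edgeR's adjusted p = 2.8e-06), and the other 2 tested were not past the threshold. All 3 STZ libraries of Slc50a1 lay above the Control libraries, and 56.3% of all genes tested were separated in either direction. Its rise was larger than that of Slc2a5 in size, but the difference between the genes was not tested.

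Of 15 listed transcription factors known to act on GLUT genes, 12 had a row and 10 passed the filter, of which 4 rose and 5 fell, against 50.9% of all genes called in either direction. Mlx, the partner of the glucose-sensing factors MondoA and ChREBP, rose from 747 ± 55.5 to 1199 ± 33.7 normalized counts, which is 0.68 ± 0.05 (SE) on the log2 scale with an adjusted p of 2.3e-14 by edgeR. The MondoA gene Mlxip, named after its values were seen, had a log2 fold change of -0.12 (adjusted p = 0.0498 by edgeR). The ChREBP gene Mlxipl was not analysed here. Sp1, the factor that binds GC boxes, fell from 1797 ± 80.5 to 1464 ± 4.44 (log2 fold change -0.30). Myc and Klf15 fell by 0.33 and 0.42 on the log2 scale. The fall of Klf15 rested on single libraries, with an adjusted p by edgeR of 0.067 without Control replicate 1 and 0.0608 without STZ replicate 1.

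Genes that handle the sugars and urate carried by GLUT5 and GLUT9 were tested for 5 of the 11 listed, of which 4 rose and 1 fell, against 50.9% of all genes called in either direction. In the polyol pathway, which turns glucose into fructose, Akr1b1 (aldose reductase) rose from 2943 ± 85.7 to 4365 ± 117 normalized counts, a log2 fold change of 0.57 (SE 0.04). Sord, the next enzyme of that pathway, rose by a log2 fold change of 0.23 (SE 0.04). Tkfc, which phosphorylates glyceraldehyde in fructose breakdown, fell from 276 ± 12.9 to 214 ± 23.4, a log2 fold change of -0.38. Abcg2, an exporter of urate, rose from 207 ± 8.47 to 326 ± 13.5 (log2 fold change 0.66, SE 0.08). The adjusted p-values of these 4 genes were at most 5.4e-04 (edgeR). Xdh, which forms urate and was named after its values were seen, had the smallest change of the 5, a log2 fold change of 0.12 with an adjusted p of 0.0411.

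Khk (ketohexokinase), which phosphorylates fructose, was near the limit of detection, with 5, 6 and 5 reads in Control and 2, 4 and 6 in STZ. The groups overlapped, and Khk, which did not pass the filter, was singled out after its values were seen. The urate carrier Slc22a12, also named after its values were seen, had at most 3 reads per library.

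**Figure D4:**
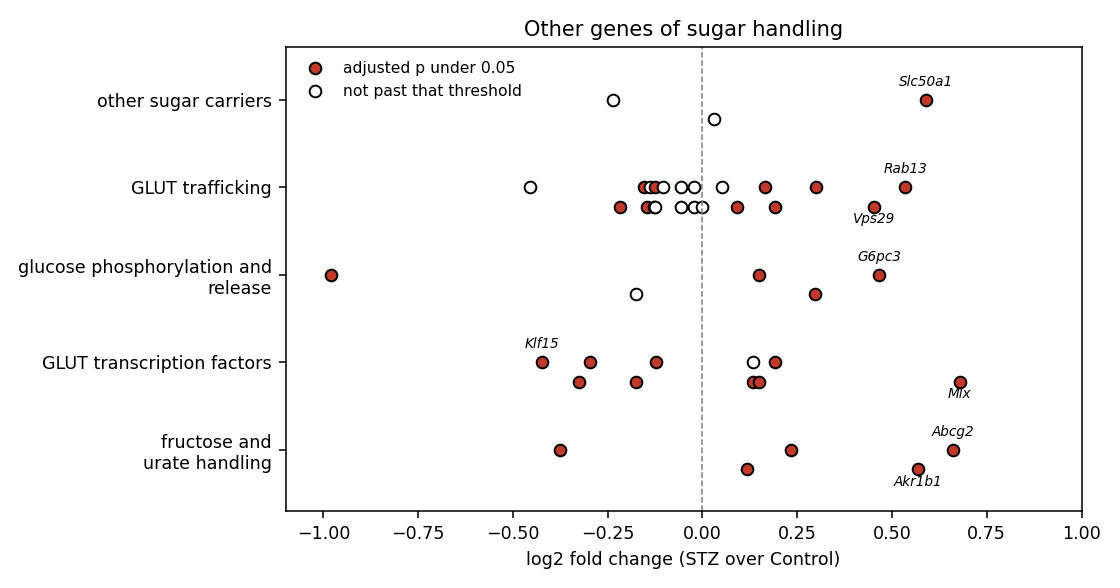
Log2 fold change (x axis, STZ over Control) of 44 other genes of sugar handling in 5 lists (y axis), filled where the adjusted p-value was under 0.05, with labels for the rule-chosen genes whose absolute log2 fold change was over 0.4. Points fall on both sides of 0 in all 5 lists, from -0.98 for Gckr to 0.68 for Mlx.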

How the data were processed

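The authors mapped single-end reads of stranded mRNA libraries to the rat genome (Rnor6) with STAR 2.7.10a and assigned unique alignments to genes with featureCounts of Subread. They deposited the raw counts of each sample. The strand setting and annotation release are not given in the sources used here. Columns were matched to groups and replicates by title, and none was left over.

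From the counts, edgeR 4.0.16 (R 4.3.3) gave TMM scaling, the default filterByExpr filter and quasi-likelihood tests, adjusted by the Benjamini-Hochberg method over 11870 genes. A gene was called below 0.05, and separately where the size of its log2 fold change was above 1. The SE is the size of the log2 fold change over the root of the F statistic, and 95% intervals use the degrees of freedom of that test. edgeR adds a small prior count to its log2 fold changes. The scripts were tested on simulated counts. Alternatives were 3 other filters, 3 other scalings, the likelihood ratio test, DESeq2 1.42.0 and limma-voom (limma 3.58.1), a block for replicate number, and leaving out each sample.

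The GLUT genes and the lists were chosen with earlier results of these data known. Named besides the 10 GLUT genes are the SGLT genes, in each list up to 4 called genes with the largest log2 fold changes in size that averaged 50 or more normalized counts, and the 3 genes closest to the GLUT gene with the smallest p. Totals of 10430924 to 15191349 counts per sample limit the precision for low genes. Levels per transcript length were not computed, since no transcript lengths were used here. Replicates differed by more than counting error, with chi-square per degree of freedom of 1.85 to 2.56. These values do not show whether the replicates came from separate cultures. Listed genes without a row were not analysed here.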

Additional observations from a re-analysis of the deposited data

How the results depend on the processing

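Slc2a5 stayed higher with an adjusted p-value under 0.05 in all 16 alternatives, with log2 fold changes of 0.22 to 0.35. Its extremes came from leaving out STZ replicate 1 and STZ replicate 3. The number of GLUT genes past the adjusted p-value, 1, was 1 to 2 with one sample left out, the second being Slc2a10 without STZ replicate 2. No alternative put a GLUT gene past both thresholds. Over the 6 expressed GLUT genes, 93 of 96 refits kept direction and side of the threshold. Slc2a8, which was not past the threshold, changed sign in 2 refits, to 0.013 without Control replicate 1 and 0.018 without STZ replicate 3, and leaving out 1 library at a time it ran from -0.14 to 0.018. Why it changed was not tested. Of 256 refits of the 16 named genes of sugar handling, 254 were unchanged and 2, both of Klf15, were weaker. The 16 genes had been chosen from these libraries as called genes with the largest changes, so unchanged refits follow largely from that choice. Over all listed genes of sugar handling, 30 of the 44 tested passed the adjusted p-value, and 23 to 30 did in the alternatives. The share of all genes called also varied, at 50.9% in the main run, 31.9% without a filter and 42.5% with DESeq2. Expressed GLUT genes numbered 6 with at least 1 CPM or 10 counts in every sample, and 7, Slc2a9 added, with at least 0.5 CPM in 1 sample or 1 count in every sample. The log2 ratio of summed GLUT CPM, 0.09, was 0.053 with library size only, which drops the TMM factors, and 0.07 to 0.10 with one sample left out. No scaling moved the median of all genes by over 0.1 on the log2 scale. The order of GLUT genes per length and its alternative were not run, since no transcript lengths were used here.

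Control and STZ samples carry the same replicate numbers. After centring each group, samples with the same number correlated at 0.0338, -0.0339 and 0.104 over 10341 genes. Samples with different numbers correlated at -0.120 to 0.0824. With 3 centred samples per group, these values cannot decide whether a shared number marks a pair. Under the replicate block the count of GLUT genes past the adjusted p-value was 1, the count of sugar handling genes was 30, and Slc2a5 had a log2 fold change of 0.28. Depth limits the 4 GLUT genes and the SGLT genes with few reads, for which small changes were not detectable.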
